A study of Mus musculus with 6 samples.

Results

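The genes described here are 10 genes of the ATF4 stress response and of serine synthesis, taken by symbol from a table of 37991 mouse genes: Atf4, Ddit3, Trib3, Ddit4, Chac1, Asns, Phgdh, Psat1, Shmt2 and Mthfd2. All 10 were found in the table, 9 passed the filter on low counts, and Chac1 did not. RNA was sequenced from regulatory T cells (Treg), T cells that restrain immune responses, isolated from mouse spleen by CD4 enrichment and then sorting for a YFP reporter. Per the labels, 3 libraries came from wild type, KAP1 sufficient cells and 3 from KAP1 deficient cells. KAP1, the product of Trim28, has no DNA binding domain of its own and silences the sites to which KRAB zinc finger proteins recruit it. The strain label reads C57BL/6 for all sufficient libraries and for deficient replicate 1, C57BL/7 for deficient replicate 2 and C57BL/8 for deficient replicate 3. The sources used here do not give the allele, the Cre driver, the age of the mice or whether replicates are separate animals. The p-values therefore reflect the spread among these 6 libraries alone, and that spread may be technical.

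ATF4 is a bZIP transcription factor made mainly when kinases phosphorylate the translation factor eIF2, as happens when amino acids run short or proteins misfold. Its textbook targets include genes for amino acid uptake and synthesis and feedback genes of the stress response. Phgdh and Psat1 encode the first and the second enzyme of serine synthesis from a glycolytic intermediate. Shmt2 and Mthfd2 encode mitochondrial enzymes that pass the one-carbon unit of serine to folate, which proliferating T cells use for nucleotide synthesis.

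Each library held 9954344 to 10994745 counts, and levels are given as CPM, in which each count is divided by its library's total and scaled to a common depth. A gene with 0 counts could have up to 3, which is 0.273 to 0.301 CPM. This limit covers counting error only. Trim28 went against the label in 2 libraries. It stood at 244, 244 and 21.2 CPM in sufficient replicates 1, 2 and 3, and at 23.0, 18.6 and 231 CPM in deficient replicates 1, 2 and 3. Every direction by label below therefore rests on 2 libraries whose Trim28 contradicts the label. Results are given for all 6 libraries by label, for the 4 libraries whose label and Trim28 level match (replicates 1 and 2 of each group, called the 4 libraries below), and for all 6 by Trim28 level. The last grouping has Trim28 high in sufficient replicates 1 and 2 and deficient replicate 3, and low in sufficient replicate 3 and deficient replicates 1 and 2. It is defined by a measured gene and is not the study's grouping, so its values are a description.

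Mthfd2 was the member that differed with Trim28: it was higher in deficient than in sufficient replicates 1 and 2, by 1.29-fold. Psat1 was lower by 1.18-fold in the same 4 libraries and narrowly missed the threshold. Atf4 itself, Shmt2 and Phgdh differed by less than 1.2-fold and did not pass, and Chac1 was hardly detected. With all 6 libraries by label, 0 of the 9 tested members passed the edgeR test at an adjusted p under 0.05, where 0.0165% of 12158 genes did. At an unadjusted edgeR p under 0.05 it was 0 of the 9, where 944 of the 12158 genes passed. In the 4 libraries 1 of 9 passed and was higher, where 17.4% of 12183 genes passed, 9.96% as higher and 7.39% as lower. By Trim28 level 1 of 9 passed and was higher, where 8.23% of 12158 genes passed and 4.61% of the 12158 were higher. The share of members called was thus not above that of all genes in the 4 libraries. The median log2 fold change of the 9 members was 0.06 by label, -0.04 in the 4 libraries and -0.10 by Trim28 level, against -0.00, -0.00 and 0.00 over all genes tested.

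**Figure D1:**
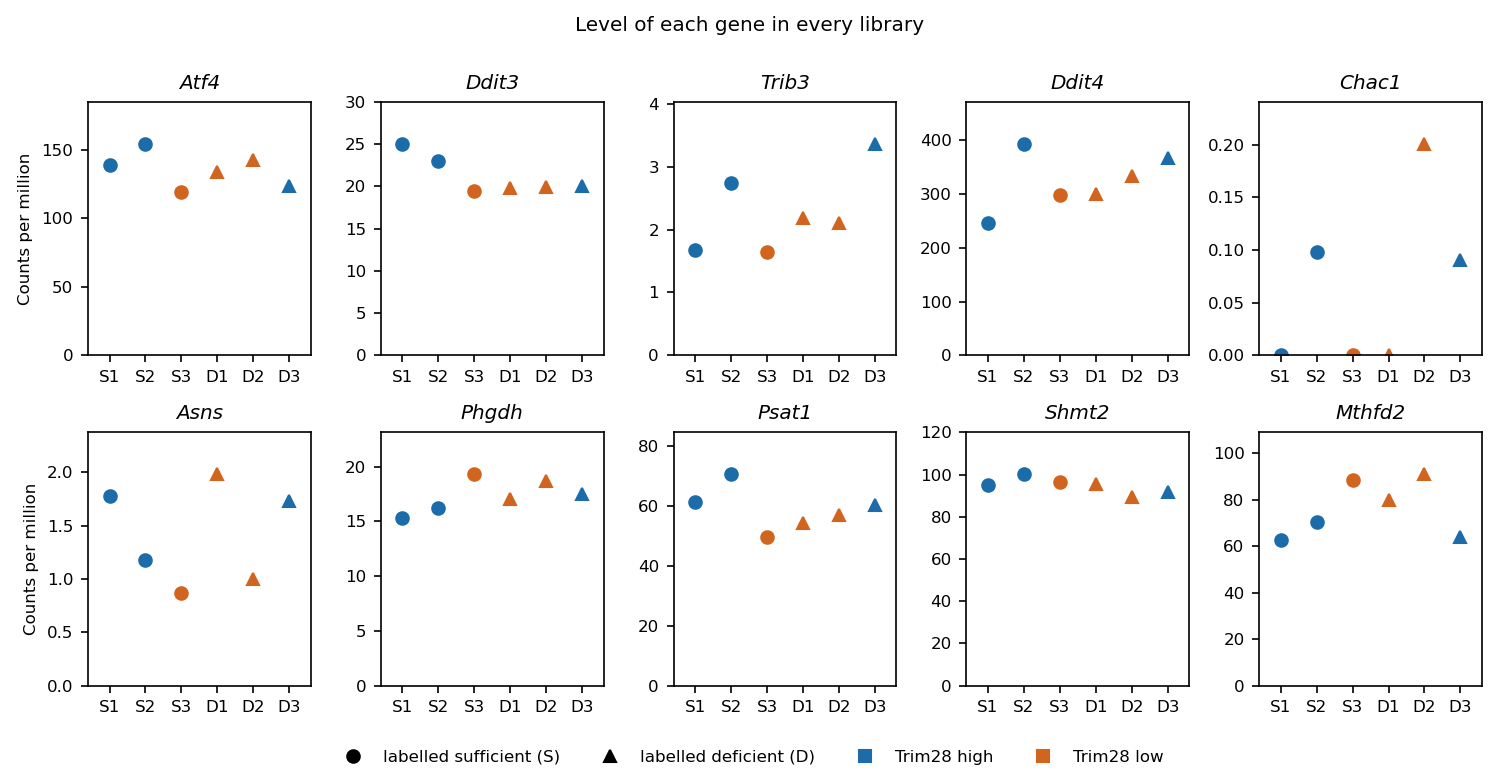
CPM of each of the 10 genes (y axis, from 0) in each library (x axis: S1 to S3 labelled sufficient, D1 to D3 labelled deficient), with 1 point per library, circles for sufficient, triangles for deficient, blue for high and orange for low Trim28. Mthfd2 lies between 79.8 and 91.0 CPM in the 3 orange libraries and between 62.8 and 70.2 CPM in the 3 blue ones, whereas Shmt2 differs little between any libraries.

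Among the mitochondrial folate enzymes, Mthfd2, which oxidises the methylene form of folate (ENSMUSG00000005667, chromosome 6, 83305691 to 83325908, mm10), stood at 62.8, 70.2 and 88.3 CPM in sufficient replicates 1, 2 and 3 and at 79.8, 91.0 and 64.1 CPM in deficient replicates 1, 2 and 3. The labelled groups overlapped, and the 2 libraries whose Trim28 contradicts the label fell with the opposite group, so that the 3 libraries with low Trim28 were all above the 3 with high Trim28. By label the means were 73.8 ± 13.2 and 78.3 ± 13.5 CPM (SD, n = 3 each), and the log2 fold change of 0.08 ± 0.17 (SE) did not pass (edgeR adjusted p = 0.908). In the 4 libraries Mthfd2 rose by 0.37 ± 0.08 on the log2 scale, with a 95% interval of 0.20 to 0.54 (edgeR adjusted p = 0.00536). By Trim28 level, with means of 65.7 ± 3.98 and 86.4 ± 5.88 CPM (SD, n = 3 each), it was 0.41 ± 0.07 higher where Trim28 was low (edgeR adjusted p = 0.00164), which is 1.32-fold.

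Shmt2, the serine hydroxymethyltransferase that precedes Mthfd2 in the same pathway (ENSMUSG00000025403, chromosome 10, 127517123 to 127522444), held 95.2, 100.2 and 96.7 CPM in the sufficient and 95.6, 89.6 and 92.0 CPM in the deficient libraries. It was the steadiest member, with the highest library only 1.12 times the lowest. Its log2 fold change was -0.08 ± 0.06 by label, -0.07 ± 0.06 in the 4 libraries (95% interval -0.21 to 0.07) and -0.02 ± 0.06 by Trim28 level (edgeR adjusted p = 0.717, 0.501 and 0.904). Whether the change of Mthfd2 differs from that of Shmt2 was not tested.

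Psat1, the aminotransferase of serine synthesis (ENSMUSG00000024640, chromosome 19, 15904678 to 15947337), stood at 61.5, 70.6 and 49.6 CPM in sufficient replicates 1, 2 and 3 and at 54.5, 56.9 and 60.2 CPM in deficient replicates 1, 2 and 3. The order was opposite to that of Mthfd2, with the 3 libraries of low Trim28 all below the 3 of high Trim28. By label the log2 fold change was -0.09 ± 0.11 (edgeR adjusted p = 0.857). In the 4 libraries it was -0.24 ± 0.08, with a 95% interval of -0.41 to -0.07 (edgeR adjusted p = 0.0507), and by Trim28 level -0.25 ± 0.08 (edgeR adjusted p = 0.0707). Without sufficient replicate 1 the value in the 4 libraries was -0.33. Without deficient replicate 3 the value by Trim28 level was -0.29 and passed (edgeR adjusted p = 0.00819). Other alternatives weakened it, to as little as -0.145 in the 4 libraries and -0.172 by Trim28 level. The largest adjusted p over the 13 alternatives by Trim28 level was 0.29.

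Phgdh, the dehydrogenase that starts serine synthesis (ENSMUSG00000053398, chromosome 3, 98313170 to 98339990), held 15.3, 16.2 and 19.3 CPM in the sufficient and 17.1, 18.7 and 17.5 CPM in the deficient libraries. Groups overlapped by label and by Trim28 level, and the lowest 2 values were those of sufficient replicates 1 and 2. Its log2 fold change was 0.06 ± 0.12 by label, 0.19 ± 0.12 in the 4 libraries (95% interval -0.08 to 0.45) and 0.17 ± 0.10 by Trim28 level (edgeR adjusted p = 0.895, 0.346 and 0.348). The level of Phgdh is uncertain, because the 2 deposited tables disagree on it. Its mean count over the 6 libraries was 178, while the authors' deposited table gives a mean level of 1018, which is 5.71 times as high. For the other 9 members this ratio lay between 0.894 and 1.14, and of 9882 genes with a mean count of at least 20 it was above 3 in 2.77%.

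Asns, which makes asparagine from aspartate (ENSMUSG00000029752, chromosome 6, 7675169 to 7693254), was a low gene, with 18, 12 and 9 counts in the sufficient and 20, 10 and 19 counts in the deficient libraries. Replicates of 1 group differed by as much as the groups did. Its log2 fold change was 0.30 ± 0.38 by label, 0.02 ± 0.41 in the 4 libraries and -0.27 ± 0.36 by Trim28 level (edgeR adjusted p = 0.845, 0.979 and 0.704). The 95% interval in the 4 libraries ran from 0.55-fold to 1.88-fold, so a change of the size seen for Mthfd2 was not detectable at this depth.

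Atf4 (ENSMUSG00000042406, chromosome 15, 80255184 to 80257541) stood at 138.5, 154.1 and 119.2 CPM in the sufficient and 133.4, 142.5 and 123.4 CPM in the deficient libraries. The libraries of replicate 3 were the lowest of each labelled group, and groups overlapped under every grouping. Its log2 fold change was -0.05 ± 0.10 by label, -0.08 ± 0.06 in the 4 libraries and -0.06 ± 0.09 by Trim28 level (edgeR adjusted p = 0.907, 0.426 and 0.707), and the 95% interval in the 4 libraries was 0.864-fold to 1.04-fold. These are transcript levels, whereas ATF4 is controlled to a large part at translation, which was not measured here.

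Ddit3, which encodes CHOP, a bZIP factor that ATF4 induces under lasting stress (ENSMUSG00000025408, chromosome 10, 127290774 to 127296288), held 25.0, 23.0 and 19.4 CPM in the sufficient and 19.8, 19.9 and 20.01 CPM in the deficient libraries. Sufficient replicates 1 and 2 were above the other 4 libraries, which lay within 0.6 CPM of each other. By label the log2 fold change was -0.18 ± 0.11 (edgeR adjusted p = 0.676). In the 4 libraries it was -0.27 ± 0.11, with an unadjusted p of 0.0287 and an edgeR adjusted p of 0.113, and by Trim28 level -0.19 ± 0.10 (edgeR adjusted p = 0.306). Without deficient replicate 3 the value by Trim28 level was -0.28 and passed (edgeR adjusted p = 0.0471). In GENCODE M21 the end of Ddit3 overlaps Mars, a gene on the opposite strand with 610 to 704 counts per library, by 68 bases. The sources used here do not say whether counting used the strand, so how reads in the overlap were assigned is unknown.

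Over the 9 tested members, the CPM of the 3 libraries with low Trim28 did not overlap that of the 3 with high Trim28 for 3 genes: Mthfd2 was higher, and Psat1 and Ddit3 were lower. Such a lack of overlap was found for 26.4% of all genes tested, 11.9% with the low group higher and 14.5% with it lower, so 3 of 9 is near the background. By label 0 of the 9 members lacked overlap, where 12.8% of all genes did. For Ddit3 the gap was 0.1 CPM, between 19.9 CPM in deficient replicate 2 and 20.01 CPM in deficient replicate 3.

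Of the feedback and effector genes, Ddit4, which encodes REDD1, an inhibitor of mTORC1 (ENSMUSG00000020108, chromosome 10, 59949669 to 59951834), had the highest level of the members and the widest spread within a group in CPM. Relative to its level it varied less than Asns and Trib3, with the highest library 1.6 times the lowest, against 2.27 times for Asns and 2.04 times for Trib3. It stood at 245, 393 and 297 CPM in sufficient replicates 1, 2 and 3 and at 299, 334 and 368 CPM in deficient replicates 1, 2 and 3. Sufficient replicates 1 and 2 were the lowest and the highest of all 6 libraries. Its log2 fold change in the 4 libraries was -0.01 ± 0.33, with a 95% interval of 0.404-fold to 2.45-fold (edgeR adjusted p = 0.992). Without sufficient replicate 1 it was -0.30 (edgeR adjusted p = 0.00507) and without sufficient replicate 2 it was 0.37 (edgeR adjusted p = 0.00221), so either call has the direction set by 1 library. By label the log2 fold change was 0.09 ± 0.18 and by Trim28 level -0.10 ± 0.18 (edgeR adjusted p = 0.901 and 0.804), and the latter was -0.28 and passed without sufficient replicate 1 (edgeR adjusted p = 0.0293).

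Trib3, a pseudokinase that feeds back on ATF4 (ENSMUSG00000032715, chromosome 2, 152337422 to 152344032), was low, with 17, 28 and 17 counts in the sufficient and 22, 21 and 37 counts in the deficient libraries. Deficient replicate 3 was the highest and the groups overlapped. Its log2 fold change was 0.33 ± 0.31 by label, -0.04 ± 0.33 in the 4 libraries and -0.39 ± 0.29 by Trim28 level (edgeR adjusted p = 0.779, 0.954 and 0.462). Chac1, which degrades glutathione (ENSMUSG00000027313, chromosome 2, 119351229 to 119354381), held 0, 1 and 0 counts in the sufficient and 0, 2 and 1 counts in the deficient libraries. All 6 values lie under the limit of 3 counts, so no fold is given.

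**Figure D2:**
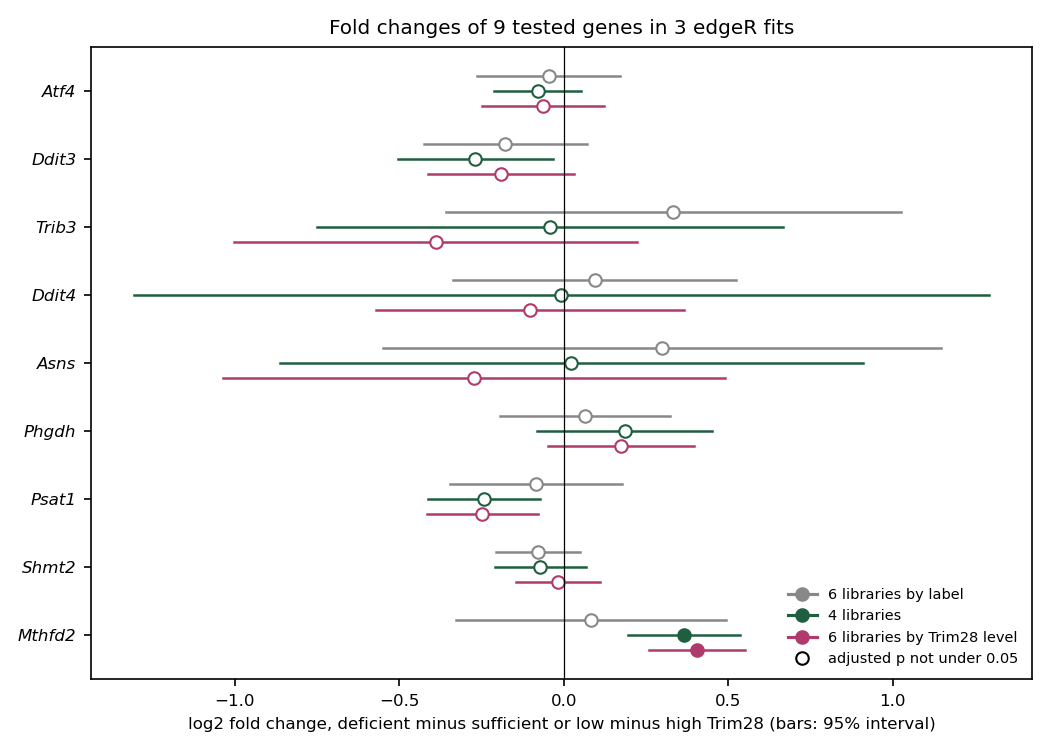
Log2 fold change (x axis) of the 9 tested genes (y axis) in 3 edgeR fits, with bars for 95% intervals and filled points for an adjusted p under 0.05. Mthfd2 is filled in the 4 libraries (0.37) and by Trim28 level (0.41) and open by label (0.08), and every other point is open.

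Promoter sequences are shown for the pair that lay on opposite sides, Mthfd2 and Psat1. They are also shown for the 2 members in which the search below found the core of the amino acid response element, the DNA element that ATF4 dimers bind. RefSeq sequences on GRCm38.p6, the assembly of mm10, matched all 10 members, and the 250 bases before each RefSeq start were searched on both strands. The letters TGATGNAA were found in Asns and Chac1 and in no other member, and in at least 1 promoter of 3.91% of all 27025 genes (3.45% of 32851 promoters of this length). The letters CCAAT, a common promoter box, were found in 7 members (Atf4, Chac1, Ddit3, Ddit4, Mthfd2, Phgdh and Psat1, the last in 1 of its 2 promoters) and in 37.5% of all genes (33.8% of promoters). The letters CACGTG, an E-box, were found in 0 members and in 6.86% of all genes (6.02% of promoters). A match is a description of letters and not evidence of binding.

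For Mthfd2 (chr6:83317607-83317854, minus strand, from 250 to 3 bases before the RefSeq start) 3 CCAAT boxes are in capitals, 1 of them in reverse as ATTGG. For Psat1 (chr19:15925060-15925309, minus strand, the 250 bases before the more upstream of its RefSeq starts) there are 2. The first 2 lines below run 5′ to 3′ in the direction of the gene.
Mthfd2: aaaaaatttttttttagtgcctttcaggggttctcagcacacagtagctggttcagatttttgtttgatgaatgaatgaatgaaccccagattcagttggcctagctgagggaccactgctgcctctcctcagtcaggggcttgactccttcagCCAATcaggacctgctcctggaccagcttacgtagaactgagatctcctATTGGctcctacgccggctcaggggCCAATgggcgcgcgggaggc
Psat1: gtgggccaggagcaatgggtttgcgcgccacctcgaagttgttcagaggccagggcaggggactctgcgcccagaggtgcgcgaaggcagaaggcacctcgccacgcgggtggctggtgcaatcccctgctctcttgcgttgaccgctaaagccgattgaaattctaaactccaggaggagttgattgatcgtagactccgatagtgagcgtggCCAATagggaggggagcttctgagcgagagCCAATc
For Asns (chr6:7693214-7693243, minus strand) the element in capitals begins 23 bases before the RefSeq start and lies inside the first exon of GENCODE M21, which begins further upstream. For Chac1 (chr2:119351019-119351086, plus strand) the capitals are the element in reverse, whose letters begin 193 bases before the start.
Asns: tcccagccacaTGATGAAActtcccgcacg
Chac1: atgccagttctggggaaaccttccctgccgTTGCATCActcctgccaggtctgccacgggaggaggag
The 2 members in which these letters were found, Asns and Chac1, were the lowest of the 10 in CPM per kb of exon, given next. Neither could be compared with precision between groups. Sequence outside the 250 bases was not searched, and a link of the element to level was not tested.

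Scaled for exon length, the levels of the 10 genes spanned a wide range. As CPM per kb of exon (mean ± SD over all 6 libraries), Ddit4 held 184 ± 30.5, Atf4 57.3 ± 5.43, Shmt2 30.5 ± 1.19 and Mthfd2 21.8 ± 3.49. Psat1 followed with 13.8 ± 1.68, Ddit3 with 12.4 ± 1.33 and Phgdh with 6.98 ± 0.600, the last being uncertain as described. Trib3 held 1.08 ± 0.311, Asns 0.521 ± 0.169 and Chac1 0.0397 ± 0.0496 CPM per kb. Among neighbours in this order, Psat1 (11.7 to 16.6 CPM per kb) and Ddit3 (11.3 to 14.6) overlapped, and the ranges of all other neighbouring pairs did not. Exon lengths are those of GENCODE M21, and the true transcript in these cells may be shorter.

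**Figure D3:**
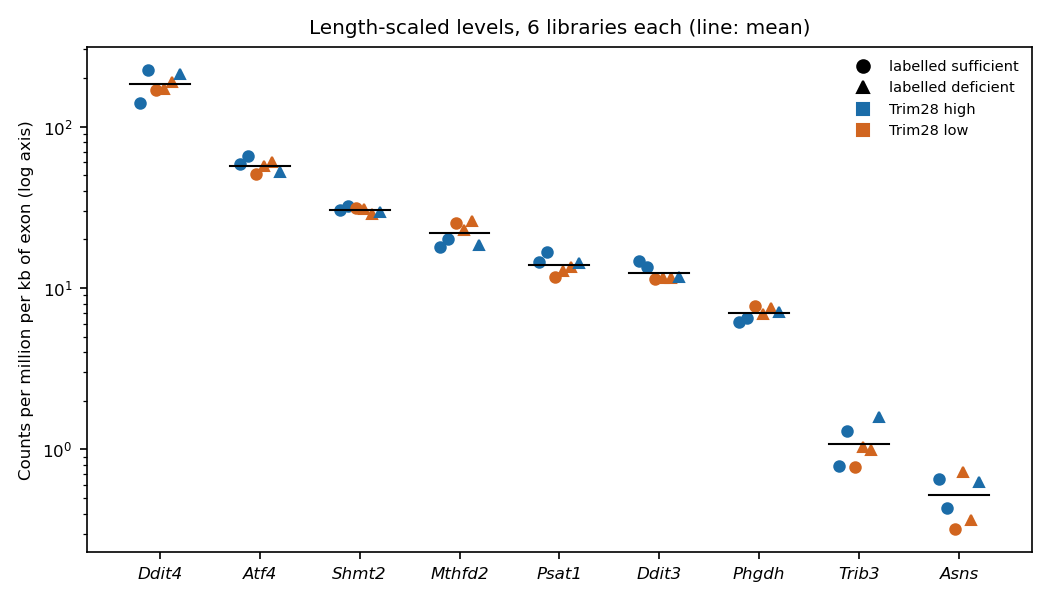
CPM per kb of exon (y axis, log scale) of 9 genes (x axis, in order of the mean) in each of the 6 libraries, with a line at the mean and the same colours and shapes as above; Chac1 is left out because it was at 0 in 3 libraries. Ddit4 leads with a mean of 184 and Asns is last with 0.521 CPM per kb.

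Of the tested genes with a mean log2 CPM of at least 1, those whose log2 CPM over the 6 libraries was most like that of Atf4 were Ubash3b, a phosphatase gene of T cell receptor signalling (Pearson r = 0.988), Myh9, a nonmuscle myosin gene (0.986), Ttc38 (0.985), Cbx7, a Polycomb gene (0.985), and Anapc13, a subunit of the anaphase-promoting complex (0.980). These are the top of 10042 genes, so values this high are given as a description only. Myh9, Ttc38 and Cbx7 lie on chromosome 15, as Atf4 does, and Ubash3b and Anapc13 on chromosome 9. Cbx7, for example, held 298, 376 and 156 CPM in the sufficient and 230, 306 and 155 CPM in the deficient libraries, with replicate 3 lowest in each labelled group as for Atf4. The members at or above this level were less like Atf4, from Psat1 (0.756, at rank 555) to Phgdh (-0.534, at rank 8235). Asns and Chac1 were too low to be compared.

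Upstream of ATF4, the eIF2 kinases, the eIF2 and eIF2B subunits and their regulators were all tested, 18 of 18. By label 0 passed. Within the 4 libraries 1 was higher, 1 was lower and 16 did not pass, against 17.4% called over all genes, and the median log2 fold change was -0.10. Impact, which restrains the amino acid sensing kinase GCN2, was higher (0.39 ± 0.10, edgeR adjusted p = 0.0123) but not without sufficient replicate 2 (0.34, adjusted p = 0.0639) or deficient replicate 1 (0.32, adjusted p = 0.133). Eif2ak2, which encodes the double-stranded RNA sensor PKR, was lower (-0.26 ± 0.07, edgeR adjusted p = 0.0285) but not without sufficient replicate 2 (-0.21) or deficient replicate 2 (-0.20). By Trim28 level 1 of the 18 passed, where 8.23% of all genes tested did. This was Eif2ak2, again lower (-0.24, edgeR adjusted p = 0.0329). It lost that call without any 1 of the sufficient replicates, or deficient replicate 1 or 2 (edgeR adjusted p from 0.0567 to 0.142).

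Of 9 genes for bZIP partners and relatives of ATF4, 6 were tested, and Atf3, Cebpd and Nupr1 were not, with 7, 6 and 1 counts over all 6 libraries. By label 0 passed. With the 4 libraries 1 was higher and 5 did not pass, where 17.4% of all genes tested passed. Cebpg, whose protein pairs with ATF4 on amino acid response elements, stood at 63.4, 63.1 and 73.7 CPM in the sufficient and 80.0, 73.7 and 71.9 CPM in the deficient libraries. It was higher in the 4 libraries (0.29 ± 0.07, edgeR adjusted p = 0.0125), but not without sufficient replicate 2 (0.28, adjusted p = 0.0503) or deficient replicate 1 (0.22, adjusted p = 0.0913), and did not pass by Trim28 level (0.21, adjusted p = 0.079).

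Other ATF4 target genes numbered 27, of which 17 were tested. Of these, 2 were higher and 2 lower in the 4 libraries and 13 did not pass, with a median log2 fold change of -0.00. Over all genes tested 9.96% were higher and 7.39% lower, so these counts are near the background. By label 0 passed. The neutral amino acid transporter genes moved apart, Slc1a4 from 1.49 and 0.688 CPM in sufficient replicates 1 and 2 to 21.4 and 17.2 CPM in deficient replicates 1 and 2, and Slc1a5 from 437 and 424 to 93.9 and 91.0 CPM. Stc2, which encodes a secreted glycoprotein, was higher (1.66 ± 0.32, edgeR adjusted p = 0.00269). Sesn2, an inhibitor of mTORC1 that senses leucine, was lower (-0.44 ± 0.13, edgeR adjusted p = 0.0309) but not without sufficient replicate 1 (-0.42), sufficient replicate 2 (-0.47) or deficient replicate 2 (-0.35). By Trim28 level 2 of the 17 were higher and 2 lower, where 8.23% of all genes tested passed. Sesn2 was lower there too (-0.47, edgeR adjusted p = 0.0146), but not without sufficient replicate 1 or 3 or deficient replicate 2 (edgeR adjusted p from 0.0535 to 0.0798). Leaving out single libraries kept Slc1a4, Slc1a5 and Stc2 past the threshold.

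All 20 cytosolic aminoacyl-tRNA synthetase genes, which charge tRNAs and are ATF4 targets in part, were tested. Among the 4 libraries 1 was higher and 19 did not pass, where 17.4% of all genes tested passed. The median log2 fold change was -0.01, and by label and by Trim28 level 0 passed. The 1 was Vars, for valine (0.27 ± 0.07, edgeR adjusted p = 0.0192), which did not pass without sufficient replicate 1 (0.31, adjusted p = 0.0732), sufficient replicate 2 (0.22, adjusted p = 0.183) or deficient replicate 1 (0.14, adjusted p = 0.25).

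Of 24 other serine, glycine, folate and methionine cycle genes 21 were tested. By label 0 passed. In the 4 libraries 1 was higher, 1 was lower and 19 did not pass, where 17.4% of all genes tested passed. The median log2 fold change was 0.02. The 2 called genes encode the subunits of one enzyme, the methionine adenosyltransferase that makes S-adenosylmethionine. Its regulatory subunit Mat2b was higher (0.26 ± 0.05, edgeR adjusted p = 0.00347) and its catalytic subunit Mat2a was lower (-0.24 ± 0.06, edgeR adjusted p = 0.00887), the latter not without sufficient replicate 1 (-0.17, adjusted p = 0.076). Mat2b stood at 134, 136 and 162 CPM in the sufficient and 163, 160 and 167 CPM in the deficient libraries, so deficient replicate 3, with high Trim28, did not fall with sufficient replicates 1 and 2. By Trim28 level neither passed (edgeR adjusted p = 0.213 for Mat2b and 0.332 for Mat2a).

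Genes of the ATF6 and XBP1 arms of the unfolded protein response, the branches beside the one that acts through ATF4, were all tested, 18 of 18. By label 0 passed. In the 4 libraries 1 was higher, 3 were lower and 14 did not pass, where 17.4% of all genes tested passed. The median log2 fold change was -0.08. Edem1, which aids disposal of misfolded glycoproteins, was higher (0.30 ± 0.05, edgeR adjusted p = 0.000755). Syvn1, a ubiquitin ligase of the same route, was lower (-0.27 ± 0.06, adjusted p = 0.00806) but not without sufficient replicate 1 (-0.23, adjusted p = 0.0568) or deficient replicate 2 (-0.22, adjusted p = 0.0925). The stress sensor gene Atf6 was lower (-0.36 ± 0.10, adjusted p = 0.0212) but not without sufficient replicate 2 (-0.27, adjusted p = 0.132) or deficient replicate 2 (-0.32, adjusted p = 0.0781). The chaperone gene Hsp90b1 was lower (-0.16 ± 0.05, adjusted p = 0.0354) but not without sufficient replicate 2 (-0.15, adjusted p = 0.104), deficient replicate 1 (-0.17, adjusted p = 0.127) or deficient replicate 2 (-0.15, adjusted p = 0.187). With DESeq2's Wald test in place of edgeR, Impact, Eif2ak2, Cebpg, Sesn2, Syvn1, Atf6 and Hsp90b1 kept their direction in the 4 libraries but did not pass (DESeq2 adjusted p from 0.0736 for Syvn1 to 0.288 for Sesn2). By Trim28 level Edem1 was higher and Atf6 lower, and the other 16 of these 18 genes did not pass. Edem1 lost that call without any 1 of the sufficient replicates, or deficient replicate 1 or 2 (edgeR adjusted p from 0.0775 to 0.134). Atf6 lost it without sufficient replicate 2 or 3, or deficient replicate 1 or 2 (edgeR adjusted p from 0.0687 to 0.118). Impact did not pass by Trim28 level (edgeR adjusted p = 0.086).

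**Figure D4:**
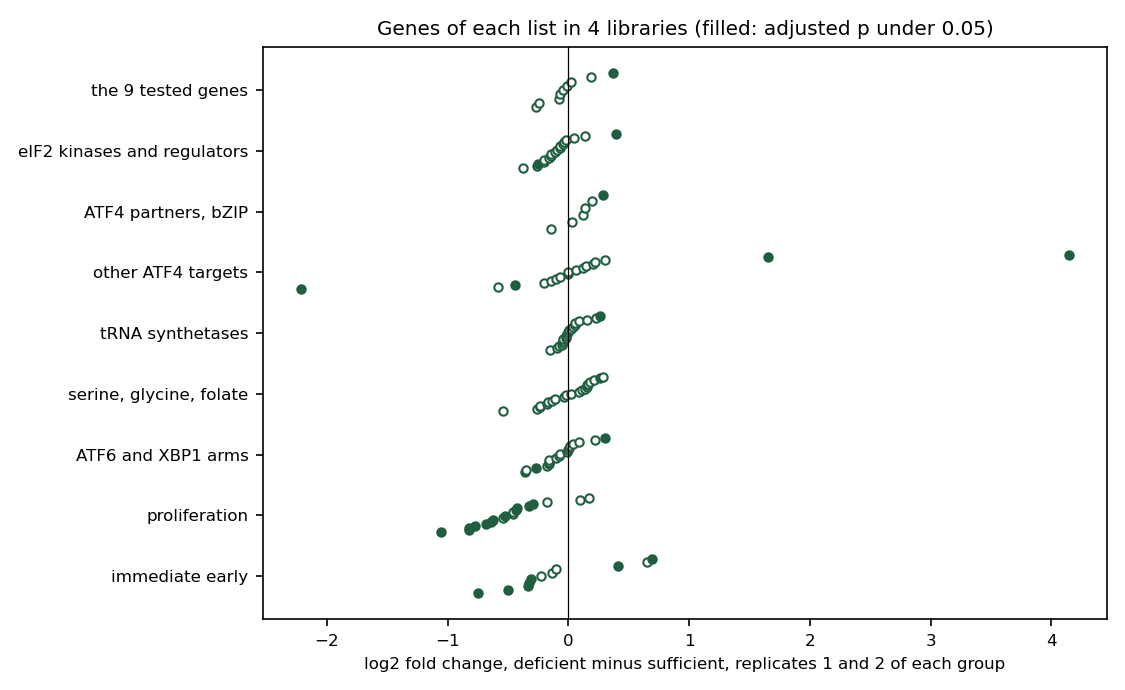
Log2 fold change of deficient against sufficient replicates 1 and 2 (x axis) for each tested gene of each list (y axis), filled where the adjusted p was under 0.05. Most genes of the stress and serine lists are open points near 0, apart from Slc1a4 (4.14), Stc2 (1.66) and Slc1a5 (-2.21), whereas 12 of 18 proliferation genes are filled and lower.

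Proliferation markers were lower in the libraries in which Mthfd2 was higher. Of 18 proliferation markers 12 were lower and 0 higher in the 4 libraries, where 7.39% of all genes tested were lower. The median log2 fold change of the markers was -0.49. Among the lower ones were Mki67 (-0.77 ± 0.07), Rrm2 (-0.62 ± 0.09), Aurkb (-1.05 ± 0.17) and Mcm3 (-0.43 ± 0.08, edgeR adjusted p = 9.01e-06, 0.00029, 0.000503 and 0.00161). The summed level of all 18 was 784 to 819 CPM in the 3 libraries with low Trim28 and 989 to 1169 CPM in the 3 with high Trim28. Of 11 tested immediate early genes, a class that dissociation and sorting can induce, 5 fell and 2 rose in the 4 libraries. Over all genes tested there, 7.39% fell and 9.96% rose. By Trim28 level 2 of the 11 were lower and 0 higher, where 439 of 12158 genes tested were lower. Those that fell in the 4 libraries were Egr2 (-0.32 ± 0.07, edgeR adjusted p = 0.0074), Egr1 (-0.75 ± 0.06), Zfp36 (-0.50 ± 0.06), Nr4a1 (-0.33 ± 0.05) and Junb (-0.31 ± 0.05; edgeR adjusted p = 6.3e-07, 1.59e-05, 0.000493 and 0.000622). Those that rose were Fos (0.69 ± 0.16) and Jun (0.41 ± 0.09; edgeR adjusted p = 0.00819 and 0.00409), which were named, like Egr2, after their values were seen. By Trim28 level the 2 lower genes were Egr1 and Nr4a1 (edgeR adjusted p = 0.0186 and 0.014). Egr1 did not pass without sufficient replicate 1, deficient replicate 1 or deficient replicate 2 (edgeR adjusted p from 0.0554 to 0.0782). Nr4a1 lost its call on leaving out any 1 of the sufficient replicates, or deficient replicate 1 or 2 (edgeR adjusted p from 0.0526 to 0.0727). Zfp36 did not pass in the main fit but passed with DESeq2's Wald test (-0.34, DESeq2 adjusted p = 0.0064). It also passed in edgeR with upper-quartile factors, DESeq2 size factors or the non-robust dispersion (adjusted p from 0.0403 to 0.0476). Without the low-count filter or without deficient replicate 3 it passed too (edgeR adjusted p = 1.81e-06 and 7.18e-06). Its largest adjusted p over the 13 alternatives was 0.179. Junb overlapped, with 188.5 CPM in deficient replicate 3 and 195.1 CPM in sufficient replicate 3. The summed level of all 12 was 1187 to 1236 CPM with low and 1247 to 1425 CPM with high Trim28. The part of proliferation or handling in the results was not tested, and in bulk RNA more cells with a transcript and more RNA per cell cannot be told apart.

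Treg markers were present in every library, with a summed level for 8 genes of 4939 to 5102 CPM with low and 5240 to 5361 CPM with high Trim28. In the 4 libraries Foxp3 (-0.25 ± 0.05), Cd5 (-0.22 ± 0.05) and Cd4 (-0.15 ± 0.05) were lower and Ikzf2 (0.19 ± 0.05) was higher (edgeR adjusted p = 0.00509, 0.00615, 0.0456 and 0.0167). The other 4 did not pass, where 17.4% of all genes tested passed. By Trim28 level 0 of the 8 passed. Without overlap between the Trim28 levels, Cd5 and Cd4 were lower and Il2ra and Tnfrsf18 were higher where Trim28 was low. Such a lack of overlap was found for 26.4% of all genes tested. Foxp3, Ikzf2, Ctla4 and Cd3e overlapped. In deficient replicate 3, with high Trim28, Foxp3 stood at 612 CPM, against 596 to 621 CPM with low Trim28. Ikzf2 was highest in that library, at 1135 CPM. Of 8 B cell markers Ms4a1 and Pax5 were at or under 3 counts in every library, and the sum, 96.6% of it Ighm, was 544 to 581 CPM with low and 607 to 697 CPM with high Trim28. Of the 4 tested, 3 were lower and 0 higher in the 4 libraries, where 7.39% of all genes tested were lower. By Trim28 level 2 of the 4 were lower and 0 higher. Igkc stood at 0.402 to 0.971 CPM with low and 1.39 to 4.03 CPM with high Trim28. Cd22 stood at 3.92 to 6.02 and 7.09 to 12.6 CPM, while Cd79a and Jchain overlapped. The sum of 8 CD8 T and natural killer markers was 34.3 to 37.6 CPM with low and 32.9 to 41.6 CPM with high Trim28, a range that covers genes moving apart. The NK receptor gene Klrb1c stood at 8.74 to 10.8 CPM with low and 2.18 to 2.77 CPM with high Trim28, and Nkg7, a granule gene, at 12.3 to 13.2 and 16.5 to 21.4 CPM. These were the 1 gene higher (1.94 ± 0.22) and the 1 lower (-0.48 ± 0.14) of 4 tested in the 4 libraries (edgeR adjusted p = 1.86e-05 and 0.026), where 17.4% of all genes tested passed. The marker genes in these sentences were named after their values were seen. The sum of 11 myeloid markers was 2.04 to 3.67 CPM over all libraries, with Csf1r, Cd14 and Adgre1 among the 8 at or under 3 counts. Red cell markers were at or under 3 counts in all libraries. The part of these marker genes in the results was not tested.

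The authors' deposited table gives a log2 fold change that is positive where sufficient cells were higher, as its Trim28 value of 3.11 shows. In the authors' deposited table Mthfd2 was at -0.35 ± 0.08 (adjusted p = 0.000221) and was the 1 member under 0.05, where 6.87% of 12072 genes with an adjusted p were. The authors' deposited table has Psat1 at 0.21 ± 0.09 (adjusted p = 0.142), Ddit3 at 0.16 ± 0.11 (adjusted p = 0.531), Atf4 at 0.06 ± 0.08 (adjusted p = 0.818), Phgdh at -0.09 ± 0.07 (adjusted p = 0.642) and Shmt2 at 0.01 ± 0.07 (adjusted p = 0.972). It rests on the same libraries and is not independent evidence. The sources used here do not say which libraries the authors placed in which group. For Trim28 the authors' table has 3.11 ± 0.08 (SE), taken as sufficient minus deficient. The edgeR fit by label, taken as deficient minus sufficient, had -0.90 ± 1.46. Both are lower in deficient libraries, but the latter is smaller and has a much larger SE. The authors' values for Asns (0.091 ± 0.113), Trib3 (0.125 ± 0.121) and Ddit4 (0.065 ± 0.128, SE) did not pass (authors' adjusted p = 0.801, 0.714 and 0.892). Their signs were those of the fit by Trim28 level and not of that by label. Values this small against their SE do not settle a direction. The authors' Trim28 and Mthfd2 values are unlike those of the fit by label in size.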

How the data were processed

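RNA of 6 Treg libraries was counted per gene. The submitters' processing notes name the mm10 build, HTSeq 0.7.2, TopHat2 2.1.1 and DESeq2 without saying what each did, and the sources used here do not give the strand setting or the annotation release. One deposited table has unnormalized read counts by Ensembl identifier. The authors' second table holds, per the file headers, a test score, a mean normalized signal per gene, a log2 fold change and the standard error of that change, p-values, adjusted p-values and q-values.

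Groups and replicate numbers came from the sample titles. Gene names matched 32919 of 37991 identifiers, and rows without a name held 0.603% of counts. Positions and exon lengths are from GENCODE M21, promoters from RefSeq on GRCm38.p6. The test was that of edgeR 4.0.16 under R 4.3.3 (quasi-likelihood, robust dispersion, TMM factors, filterByExpr, Benjamini-Hochberg over all tested genes at 0.05). Standard errors came from the fold change and the F value. The fits were also run on simulated counts with known changes, in which no library goes against its group. That setting differs from these data, so it cannot show how the fit by label performs here. DESeq2 1.42.0, limma-voom (limma 3.58.1), other factors and filters, a replicate block and leaving out each library were alternatives. Python 3.11.15 with pandas 2.3.3, scipy 1.17.1 and matplotlib 3.10.9 made tables and plots.

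The members and lists were chosen with earlier results of these data known. Named genes are Trim28, the members, up to 4 called genes per list in the 4 libraries (the 2 with the smallest adjusted p where none was called), and the 5 genes most like Atf4, leaving out predicted genes and pseudogenes. One marker gene is not reported here.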

Additional observations from a re-analysis of the deposited data

How the results depend on the processing

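Mthfd2 was called higher in all 11 alternatives on the 4 libraries (log2 fold change 0.27 to 0.46, largest adjusted p = 0.0461) and in all 13 by Trim28 level (0.37 to 0.46, largest adjusted p = 0.0159). Its largest adjusted p in the 4 libraries came near the threshold. By label it was called only without both libraries whose Trim28 contradicts the label. Psat1 was called in the 4 libraries with upper-quartile factors (-0.27) and without the low-count filter (-0.24). By Trim28 level it was called with upper-quartile factors (-0.27), without the filter (-0.25) and without deficient replicate 3 (-0.29). It was lower in every alternative on these fits, but by as little as -0.145 in the 4 libraries and -0.172 by Trim28 level. Its largest adjusted p over the 13 alternatives by Trim28 level was 0.29. The cause was not tested. Ddit4, not called with all libraries, was called in opposite directions in the 4 libraries without sufficient replicate 1 (-0.30) and without sufficient replicate 2 (0.37).

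Over all genes, the 2 calls by label became 6 with DESeq2's Wald test, 1 with limma-voom or the non-robust dispersion, 2114 without both doubted libraries, and 1 to 807 without single libraries, the highest without sufficient replicate 3. The 2114 calls in 4 libraries became 935 with DESeq2's Wald test. The 1000 by Trim28 level became 1676 without the low-count filter, which tested more genes, and 556 to 2737 without single libraries, the highest without deficient replicate 3. The replicate block gave 0 calls by label (705 genes at an unadjusted edgeR p under 0.05; DESeq2's Wald test without the block gave 6), 2359 in 4 libraries and 1117 by Trim28 level, and Psat1 passed with it in 4 libraries (-0.24, adjusted p = 0.0405) and by Trim28 level (-0.25, adjusted p = 0.0395). Between libraries of the same number, deviations from the group means correlated at -0.365, -0.292 and -0.613, and 0 of 6 libraries correlated best with their own number. Those means mix libraries of high and low Trim28, so these values do not show whether the numbers pair the libraries, and the labels do not say that they do. With upper-quartile factors the calls in 4 libraries were 1046 higher and 1248 lower, against 1214 and 900. Depth limits Asns, Trib3 and Chac1.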

Other observations

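The counts of Mthfd2 and Psat1 were set against each other within each library, a ratio chosen after the values were seen and free of any scaling between libraries. Mthfd2 over Psat1 was 1.02 and 0.994 in sufficient replicates 1 and 2 and 1.06 in deficient replicate 3, the libraries with high Trim28. It was 1.46 and 1.60 in deficient replicates 1 and 2 and 1.78 in sufficient replicate 3, the libraries with low Trim28. The pair was chosen for its difference, so no test is given, and a ratio within a library shows unequal change but not which gene changed.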
